A study of Mus musculus with 16 samples.

Results

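The response of the wildtype mouse ventricle to pressure overload was measured as the difference between 4 libraries from wildtype (WT) mice after transverse aortic constriction (TAC) and 4 libraries from WT mice after sham surgery. These are 8 of the 16 libraries of the study and were chosen by their labels alone, and every gene of the count table that passed a filter on low counts was compared. The comparison asks how sustained load changes the genes of the ventricle when junctophilin-2, which ties the surface membrane to the calcium store, is normal. All mice were C57BL/6N, labelled male, and had surgery at 9 to 10 weeks of age. Ventricles were taken 5 weeks after surgery, so the WT TAC mice had carried a narrowed aorta for 5 weeks and the WT sham mice had been operated on without that narrowing. The other 8 libraries came from littermates homozygous for JP2CR, in which codons 563 to 568 of Jph2 are deleted so that calpain, a calcium-activated protease, cannot cut junctophilin-2 at that site. They enter here only through the shared estimate of spread and in a test of whether the WT response differed from theirs.

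TAC raises the pressure against which the left ventricle ejects. Heart muscle cells answer a lasting load by thickening, by switching to genes that the fetal heart uses, and by adding sarcomeres and the proteins that anchor them. Adult heart muscle burns mainly fatty acids in its mitochondria, fibroblasts supply the collagen of the wall, and both fuel use and matrix are known to shift when the load persists. In bulk tissue fewer cells of a type and less RNA per cell cannot be told apart, and this holds for every fall and rise given here.

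Promoter sequence is shown for 5 genes that rose, picked from those with large rises after their promoters had been searched, because each holds the hexamer CATTCC, known as the MCAT motif and bound by TEAD transcription factors. The sequences are the 250 bases before the annotated start, 5′ to 3′ on the gene's strand, from RefSeq on GRCm38.p6, with each MCAT motif in capitals on whichever strand it was read (GGAATG where it lies on the other strand). In Acta1 the capitals also mark a CArG box, the site of serum response factor. Positions count back from the start, with -1 the base before it.
Myh7, chr14:54994627-54994876, minus strand, MCAT at -201: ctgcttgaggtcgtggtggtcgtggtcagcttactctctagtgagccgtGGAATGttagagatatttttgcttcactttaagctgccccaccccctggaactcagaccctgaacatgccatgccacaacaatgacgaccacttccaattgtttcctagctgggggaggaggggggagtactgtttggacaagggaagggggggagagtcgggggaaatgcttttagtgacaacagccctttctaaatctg
Acta1, chr8:123894776-123895025, minus strand, CArG at -73 and MCAT at -46: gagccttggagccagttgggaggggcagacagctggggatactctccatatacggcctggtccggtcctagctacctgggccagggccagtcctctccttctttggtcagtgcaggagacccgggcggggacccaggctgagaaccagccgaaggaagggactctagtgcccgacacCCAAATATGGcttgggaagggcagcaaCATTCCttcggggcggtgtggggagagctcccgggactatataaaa
Nppb, chr4:147985650-147985899, plus strand, MCAT at -105: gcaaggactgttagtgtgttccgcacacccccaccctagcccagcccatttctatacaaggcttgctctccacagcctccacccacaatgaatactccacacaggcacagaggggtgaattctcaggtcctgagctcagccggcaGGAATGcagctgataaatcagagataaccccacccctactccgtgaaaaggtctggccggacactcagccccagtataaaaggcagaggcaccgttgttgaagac
Ankrd1, chr19:36119845-36120094, minus strand, MCAT at -210 and -123: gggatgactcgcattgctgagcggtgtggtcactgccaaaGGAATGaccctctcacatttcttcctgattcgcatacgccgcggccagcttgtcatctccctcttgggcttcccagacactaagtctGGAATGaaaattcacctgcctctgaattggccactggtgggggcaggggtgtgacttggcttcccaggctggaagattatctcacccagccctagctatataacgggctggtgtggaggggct
Thbs4, chr13:92794819-92795068, minus strand, 2 overlapping MCAT at -197 and -192: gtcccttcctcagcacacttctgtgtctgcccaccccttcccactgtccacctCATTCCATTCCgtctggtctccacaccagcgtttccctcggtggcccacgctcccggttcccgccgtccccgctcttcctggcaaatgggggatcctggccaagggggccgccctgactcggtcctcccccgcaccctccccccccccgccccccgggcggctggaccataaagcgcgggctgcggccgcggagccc
Myh7 has a second annotated start a little further downstream whose 250 bases hold no MCAT motif. Among the tested genes with 1 or more promoters in the table, 1503 of 10264 (14.6%) held the motif on either strand in the 300 bases around a start. Of the 15 genes with the highest fold change named here, 14 had a promoter in the table and 7 of these held it, and of the 10 genes with the largest rise in CPM 5 of 9 did. It was in 3 of the 12 genes with the smallest p among the rises, in 2 of 8 among the falls, and in 1 of 10 genes with the lowest fold change. Among lists it was in 4 of 32 Z-disc genes and 4 of 23 collagen chains, which mostly rose, and in 5 of 37 complex I genes, 5 of 36 lipid genes and 5 of 22 genes of pyruvate and ketone use, which mostly fell. Myh6, which fell, holds it at -206. These counts describe small sets of genes picked by their response, and a match is not evidence of binding.

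The 8 WT libraries held 11885303 to 16221853 counts each. Levels are given as CPM, which scales each count to the library total adjusted by TMM, a factor that corrects for a few very abundant genes. A floor of 3 counts came to 0.186 CPM in WT sham 2 and 0.252 CPM in WT sham 1, the lowest and highest of the 8, and covers counting error only. A ± after a mean CPM is the SD over 4 libraries and a ± after a log2 fold change is the SE of the fit. A gene is said to have risen, fallen or been called when its adjusted p was under 0.05 in edgeR's quasi-likelihood test with Benjamini-Hochberg adjustment over all genes tested. No label names the animal behind a library, so a p-value here reflects how far libraries within a group differ, which may be technical in part. That spread is pooled over all 4 groups, so the JP2CR libraries also set the SEs and p-values of the WT comparison. In a fit of the 8 WT libraries alone 3142 genes were called higher and 2912 lower. WT TAC 3 stood between WT TAC 1 and WT TAC 2 for 99.00% of the 1004 genes that differed between those libraries, a higher share than for any other library of its group. JP2CR TAC 3 stood between JP2CR TAC 1 and JP2CR TAC 2 for 99.3% of 884 such genes. Whether these libraries hold RNA of their neighbours was not tested, and if so the WT TAC group would hold fewer than 4 independent libraries and its SDs and p-values could be too small. Without WT TAC 3 and JP2CR TAC 3, 2462 genes were called higher and 2403 lower, and calls lost that way are given beside the gene. Ventricular muscle markers summed to 77356 to 81730.5 CPM in WT sham, above every other marker list. Jph2 itself, the gene altered in the other genotype, was at 646, 703, 626 and 696 CPM in the 4 WT sham libraries and 688, 636, 679 and 649 CPM in the 4 WT TAC libraries. Its groups overlapped and it was not called (log2 fold change -0.01 ± 0.06, adjusted p = 0.915).

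Of 13522 genes tested, 5665 (41.9%) were called, 2848 higher (21.1%) and 2817 lower (20.8%), and the median log2 fold change over all genes tested was -0.00094. A gene list therefore has to be read against a background in which many genes moved in each direction. Changes of more than 2-fold were fewer, 519 genes higher (3.84%) and 510 lower (3.77%). The libraries of the groups did not overlap for 5677 genes (42%).

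**Figure D1:**
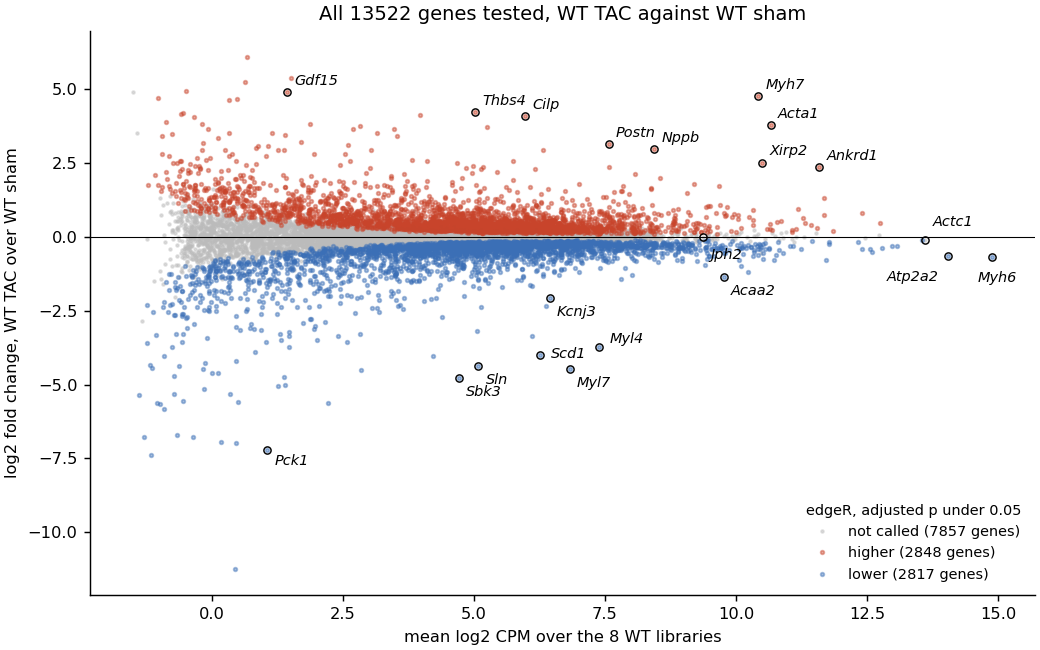
Log2 fold change of WT TAC over WT sham (vertical axis) against the mean log2 CPM over the 8 WT libraries (horizontal axis) for all 13522 genes tested, with 2848 genes called higher in red, 2817 called lower in blue and the rest in grey. Named genes are circled, and the called genes spread above and below the line at 0 in like numbers.

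The genes of the load response separated the groups by wide margins. Myh7, the slow cardiac myosin heavy chain, stood at 286, 247, 253 and 271 CPM in WT sham and 8012, 5851, 7041 and 7768 CPM in WT TAC. Acta1, the skeletal form of sarcomeric actin, went from 509.6, 376, 424 and 443 CPM to 5263, 7466, 6657 and 5061 CPM. Every WT TAC library lay far above every sham library for both genes. Ankrd1, a stress-responsive ankyrin repeat protein that binds titin and also enters the nucleus, was at 1357, 1341, 1364 and 1326 CPM in sham and 7272, 6768, 6962 and 6948 CPM in TAC. Nppb, which encodes B-type natriuretic peptide, a hormone released by stretched muscle, was at 133, 114, 126 and 121 CPM and 827, 1101, 991 and 987 CPM. The 4 libraries of a group differed little among themselves for Ankrd1 and Nppb and the groups were far apart. Log2 fold changes were 4.76 ± 0.25 for Myh7, 3.80 ± 0.41 for Acta1, 2.37 ± 0.21 for Ankrd1 (adjusted p = 1.36e-07) and 2.98 ± 0.17 for Nppb. Nppa, the atrial natriuretic peptide, was less even: 1774, 2361, 2024 and 2229.7 CPM in sham and 7264, 4236, 5799 and 3838 CPM in TAC. Its libraries did not overlap, but its call was marginal (log2 fold change 1.33 ± 0.52, adjusted p = 0.0473) and was lost with DESeq2, with limma voom, without WT TAC 3 and JP2CR TAC 3, and when any 1 of the 8 WT libraries was left out. Nppa is also made in atrial muscle, whose markers fell in these libraries, as described further on. In the edgeR fit with atrial and adipocyte marker means as covariates its log2 fold change was 4.01 (adjusted p = 3.38e-05). Those means differ between the surgery groups, so that fit cannot separate atrial tissue from the response to TAC. Actc1, the main cardiac actin, was at 12988 ± 312 CPM in sham and 12043 ± 188 CPM in TAC and was not called (adjusted p = 0.244).

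**Figure D2:**
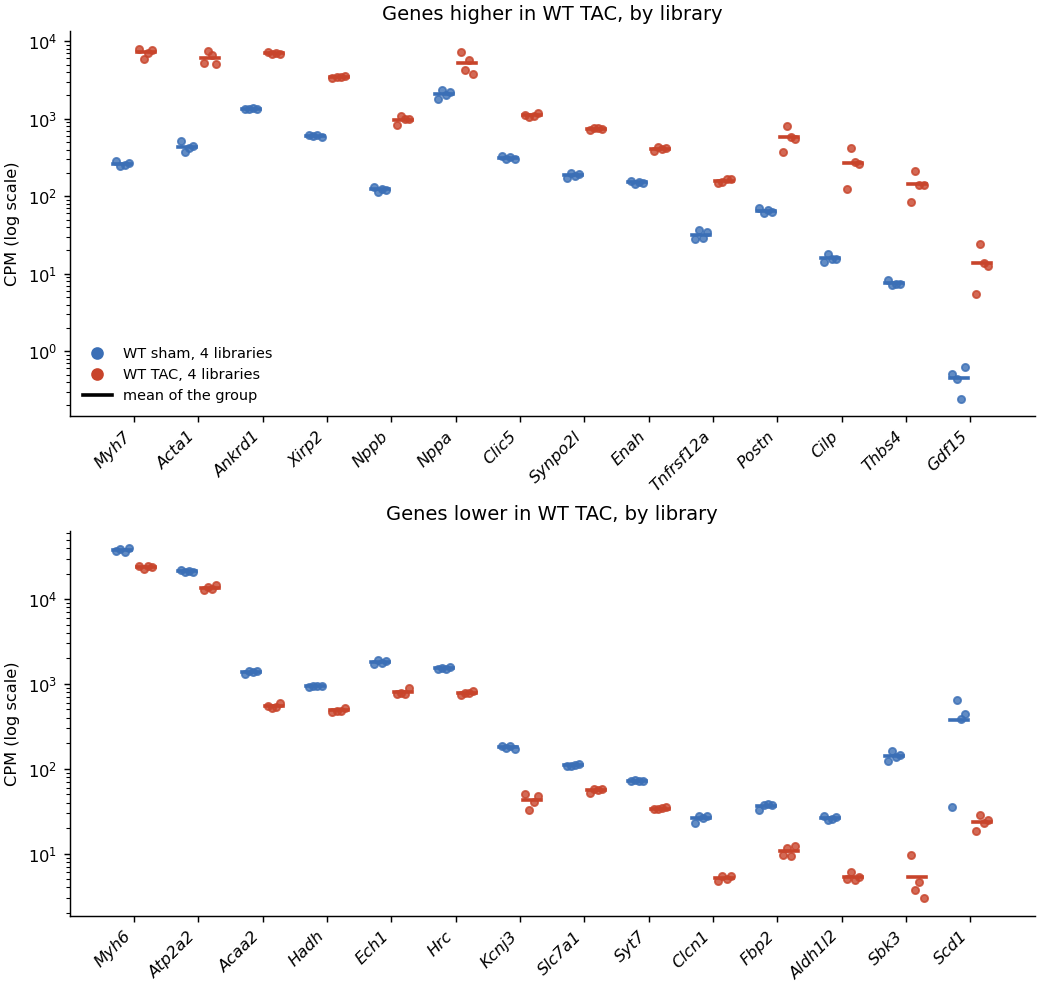
CPM (log scale) of 14 genes that were higher (top) and 14 that were lower (bottom) in WT TAC, with 4 WT sham libraries as blue points, 4 WT TAC libraries as red points and the mean of each group as a bar. The red and blue points do not overlap for any gene drawn, Scd1 among them, where WT sham 1 sits at 35.4 CPM, just above the TAC libraries. Many of these genes were named under a rule that required this.

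Genes named here for the smallest p or for the highest or lowest fold were drawn only from genes whose groups did not overlap. That they do not overlap was thus fixed by the choice and is no further result. Besides Myh7 and Nppb, the 12 genes with the smallest p among those that rose were Xirp2, Clic5, Synpo2l, Enah, Nlrc3, Tnfrsf12a, Rtn4, Uck2, Prune2 and Ppfia1. Xirp2, a Xin-repeat protein that binds actin at the intercalated disc, was at 609.8, 604, 621 and 590.4 CPM in sham and 3408, 3493, 3412 and 3590.0 CPM in TAC. Clic5, a chloride channel family protein found in cardiac mitochondria and actin-based structures, went from 333, 303, 324 and 306 CPM to 1113, 1054, 1079.9 and 1175 CPM. The spread within a group was a few percent of the mean for both genes, and their log2 fold changes were 2.52 ± 0.09 (adjusted p = 5.71e-12) and 1.80 ± 0.06 (adjusted p = 1.31e-12). Synpo2l, an actin-bundling protein of the Z-disc, was at 173, 203, 185 and 195 CPM and 723, 768, 761 and 738 CPM. Enah, which lengthens actin filaments and sits at the intercalated disc, was at 158, 145, 152 and 148 CPM and 384, 429.8, 407 and 418 CPM. Nlrc3, a regulator of innate immune signalling, was at 1.68, 1.80, 1.71 and 1.73 CPM and 24.6, 21.6, 22.4 and 19.4 CPM. All 3 rose with no overlap between groups, by 1.98 ± 0.08, 1.44 ± 0.06 and 3.66 ± 0.14 on the log2 scale. Tnfrsf12a, the receptor for the cytokine TWEAK, rose from 32.1 ± 4.27 to 159.5 ± 9.05 CPM. Rtn4, a reticulon that shapes endoplasmic reticulum membrane, rose from 110.2 ± 3.29 to 281 ± 11.4 CPM, and Uck2, a uridine salvage kinase, from 15.7 ± 1.41 to 78.1 ± 13.5 CPM. Prune2 and Ppfia1 (liprin-alpha-1, a scaffold of focal adhesions) rose by 1.67 ± 0.08 and 1.18 ± 0.06 on the log2 scale. These 10 genes kept their call in every alternative run.

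Fuel, transport and membrane genes led the falls by p. Acaa2, the last enzyme of the mitochondrial fatty acid oxidation spiral, was at 1307, 1436, 1376 and 1438 CPM in sham and 544, 521, 541 and 589 CPM in TAC. Hadh, the enzyme before it, was at 922, 937, 939 and 934 CPM and 473, 480.0, 479.9 and 519 CPM, and Ech1, which handles unsaturated fatty acids, at 1811 ± 85.05 CPM and 793 ± 61.99 CPM on average. Clcn1, the muscle chloride channel, was at 22.7, 27.8, 26.1 and 27.8 CPM and 4.80, 5.38, 5.03 and 5.46 CPM. The groups were well apart for each, with log2 fold changes of -1.34 ± 0.07 for Acaa2 (adjusted p = 2.77e-10), -0.94 ± 0.06 for Hadh and -2.34 ± 0.12 for Clcn1 (adjusted p = 2.46e-10). Slc7a1, which imports arginine and lysine, went from 111 ± 2.37 to 55.8 ± 2.82 CPM, and Syt7, a calcium sensor of vesicle fusion, from 72.3 ± 0.893 to 34.01 ± 0.858 CPM. Fbp2, muscle fructose bisphosphatase, went from 36.5 ± 2.82 to 10.8 ± 1.44 CPM, and Maob, which breaks down monoamines in mitochondria, from 98.1 ± 8.04 to 36.1 ± 2.71 CPM. Rtn2, a reticulon of striated muscle, fell (-1.16 ± 0.07) while its relative Rtn4 rose. Pla2g5, a secreted phospholipase, changed by -2.01 ± 0.13, and Adamts7, a metalloprotease that cuts the matrix protein COMP, by -1.19 ± 0.08. Kcnj3, given with the potassium channels, was also among the 12. All 12 kept their call in every alternative run.

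Besides Myh7, Acta1 and Nlrc3, the 15 highest folds belonged mostly to secreted proteins and enzymes at low levels in sham. Gdf15, a stress hormone that curbs appetite, was at 0.503, 0.435, 0.244 and 0.624 CPM in sham and 5.42, 23.9, 13.7 and 12.7 CPM in TAC, with WT TAC 1 low and WT TAC 2 high. Thbs4, a matricellular thrombospondin, was at 8.22, 7.27, 7.41 and 7.48 CPM and 84.1, 211, 138 and 139 CPM, and Cilp, a matrix protein that binds TGF-beta, at 14.01, 17.9, 15.6 and 15.5 CPM and 124, 420.3, 277 and 263 CPM. In Thbs4 and Cilp, as in Gdf15, WT TAC 1 was the lowest and WT TAC 2 the highest of the TAC group, and each TAC library was above each sham library. Nmrk2, a kinase that makes NAD from nicotinamide riboside in muscle, showed the opposite order, 101, 34.2, 69.04 and 62.7 CPM in TAC against 4.20, 3.79, 3.58 and 3.53 CPM in sham. Dio2, which activates thyroid hormone, rose from 3.19 ± 0.925 to 41.3 ± 16.9 CPM, and Aqp8, a water and peroxide channel, from 1.92 ± 0.563 to 25.9 ± 6.99 CPM. Ltbp2, a microfibril protein, rose by 3.71 ± 0.22, Edn3, an endothelin, by 3.52 ± 0.23, and Frem1, a basement membrane protein, by 3.44 ± 0.24 on the log2 scale. Zbed6, a repressor of Igf2 in muscle, rose from 0.918 ± 0.295 to 13.3 ± 2.55 CPM and Lman1l, an endoplasmic reticulum lectin, from 0.594 ± 0.273 to 6.97 ± 0.737 CPM. Zbed6 lies in an intron of Zc3h11a, so the counting could divide their reads in ways not given in the sources used here.

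A few abundant genes carried much of the shift in RNA mass. The 10 genes with the largest rise in mean CPM added 33986 CPM, 31.5% of the rise summed over all genes called higher. They were Myh7, Acta1, Ankrd1, Nppa, Ttn, Xirp2, Mybpc3, Hspb7, Des and Myom2. Ttn, the giant spring of the sarcomere, rose from 4085 ± 106 to 7221 ± 354 CPM (0.82 ± 0.07), Des, the muscle intermediate filament desmin, from 1663 ± 78.8 to 3228 ± 167 CPM, and Mybpc3, cardiac myosin binding protein C, from 5860.1 ± 322 to 8069 ± 963 CPM. Hspb7, a small heat shock protein that binds filamin C, rose by 0.73 ± 0.10, and Myom2, an M-band protein, by 0.65 ± 0.08. Apart from the natriuretic peptide Nppa, the genes of this group encode parts of the sarcomere, its anchors or their chaperones. The 10 largest falls came to -35017 CPM in sum, 30.9% of the sum over all genes called lower. These were Myh6, Atp2a2, Pln, Tpm1, Tnni3, Myl2, Tnnt2, Atp5b, Atp5a1 and Ech1. Myh6, the fast cardiac myosin heavy chain, went from 37798 ± 1621 to 23853 ± 719 CPM and Atp2a2, which pumps calcium back into its store, from 21151 ± 607 to 13572 ± 812 CPM. Pln, which restrains that pump, fell as well (-0.50 ± 0.07). The thin filament genes Tnni3 (-0.77 ± 0.06), Tnnt2 (-0.31 ± 0.05) and Tpm1 (-0.32 ± 0.04) fell, as did the ATP synthase genes Atp5b (-0.39 ± 0.04) and Atp5a1 (-0.41 ± 0.04). Abundant sarcomere genes thus stood on both sides. Genes of titin, binding protein C, the M-band, slow myosin and the actin Acta1 were higher. The troponin and tropomyosin genes just named, fast myosin and the regulatory light chain Myl2 (-0.36 ± 0.06) were lower.

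Gene lists grouped by role are described next by how many of their tested members were called, beside the 21.1% of all genes that rose and the 20.8% that fell. In either direction a share near these is that of the genes at large, also where this is not repeated. Of the 44 lists drawn, collagen chains and Z-disc genes had the highest shares called higher, and complex I genes the highest share called lower.

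**Figure D3:**
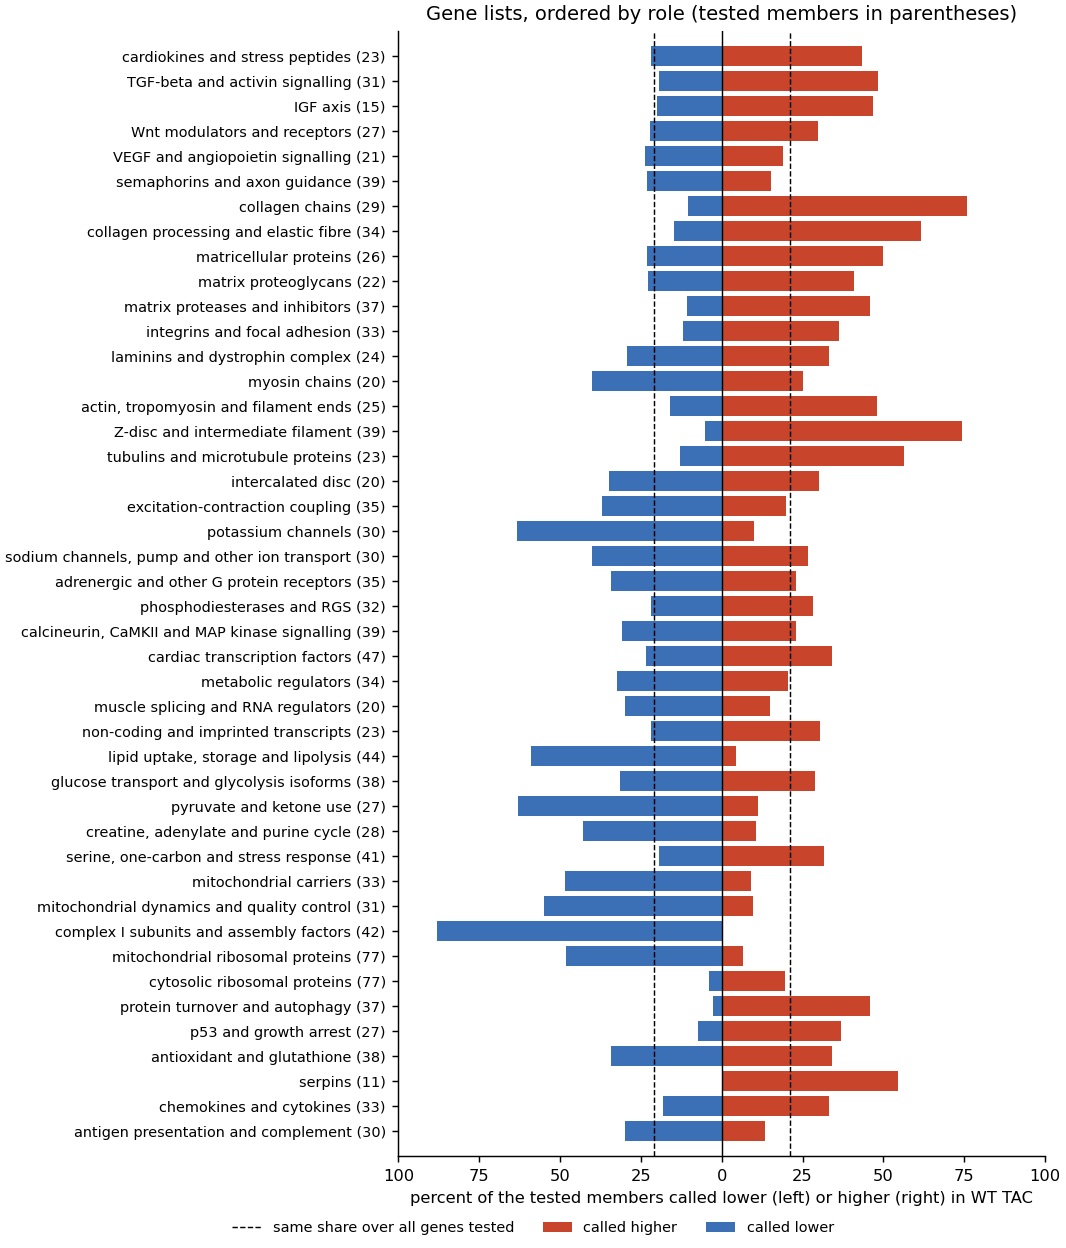
Percent of the tested members of each of 44 gene lists called lower (blue, to the left) or higher (red, to the right) in WT TAC, with the number tested in parentheses and dashed lines at the share over all genes tested, 20.8% lower and 21.1% higher. Bars past the dashed lines on one side mark lists such as the Z-disc genes (29 of 39 higher) and complex I (37 of 42 lower).

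Among secreted signals, 10 of 23 tested cardiokines and stress peptides rose (median log2 fold change 0.31), and 6 rose without WT sham 2. The 5 that fell were a share close to that of all genes. Hbegf, a ligand of the EGF receptor, rose from 21.9 ± 1.48 to 53.7 ± 3.88 CPM, with each TAC library above 50 CPM. Fstl1, a follistatin-like glycoprotein secreted by stressed heart, was at 134, 129.8, 136 and 128 CPM in sham and 314, 483, 396 and 360.2 CPM in TAC, again lowest in WT TAC 1 and highest in WT TAC 2. Edn1, the endothelin known for its constrictor action, rose by 0.54 ± 0.17, against 3.52 ± 0.23 for its relative Edn3, and its call was lost without WT sham 2. Apln (-1.10 ± 0.17), the ligand of the apelin receptor, and Fgf16 (-1.07 ± 0.20), a cardiac fibroblast growth factor, fell. Of 31 tested genes of TGF-beta and activin signalling, 15 rose and 6 fell (median 0.29). Tgfb2 was at 17.7, 14.3, 14.7 and 14.1 CPM in sham and 46.95, 50.4, 43.99 and 51.9 CPM in TAC, a rise of 1.67 ± 0.11 (adjusted p = 5.45e-09), against 0.41 ± 0.09 for Tgfb1 and 0.60 ± 0.13 for Tgfb3. Members that fell included Ltbp1 (-0.71 ± 0.06), which stores latent TGF-beta, the co-receptor Tgfbr3 (-0.79 ± 0.07) and Bmper (-1.49 ± 0.20), a secreted regulator of BMPs.

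In the IGF axis 7 of 15 tested genes rose and 3 fell. Igf1 (0.76 ± 0.11), the insulin receptor Insr (0.69 ± 0.09) and the binding proteins Igfbp7 (1.23 ± 0.09) and Igfbp3 (0.70 ± 0.09) rose, while Igf2 (-0.62 ± 0.15) and the protease Htra1 (-0.89 ± 0.11), which cleaves binding proteins, fell. Of 27 Wnt modulators and receptors 8 rose and 6 fell, the falls a share close to that of all genes. The antagonists Frzb, from 7.86 ± 1.42 to 25.7 ± 6.03 CPM, and Sfrp2, from 5.46 ± 0.596 to 18.4 ± 2.40 CPM, rose, and the antagonist Wif1, from 11.6 ± 1.08 to 2.94 ± 0.745 CPM, and the R-spondin receptor Lgr6 (-1.19 ± 0.09) fell. Of 21 VEGF and angiopoietin genes 4 rose and 5 fell, shares close to those of all genes, and the 4 rises were lost with the marker covariates described below. Angpt1, which steadies vessels through the receptor Tie2, nonetheless went from 102, 73.9, 84.8 and 74.7 CPM in sham to 33.01, 18.99, 24.7 and 27.4 CPM in TAC (-1.69 ± 0.20), with no overlap. Of 39 semaphorin and axon guidance genes 6 rose and 9 fell, 38.5% called in all against 41.9% of all genes. The falls included Sema6c (-2.12 ± 0.17), the receptor Plxnb1 (-1.31 ± 0.13) and the ephrin Efnb3 (-1.16 ± 0.12).

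Matrix genes were among the groups with most rises. Of 29 tested collagen chains 22 rose and 3 fell (median log2 fold change 0.74), and of 34 genes of collagen processing and elastic fibres 21 rose and 5 fell, 3 without WT sham 2 (median 0.45). Col8a1, a short-chain collagen of vessels and scars, was at 30.04, 26.7, 31.7 and 28.8 CPM in sham and 153, 300.2, 226 and 217 CPM in TAC. Col12a1, which decorates fibrils, went from 2.85, 3.91, 3.18 and 4.43 CPM to 19.4, 56.97, 37.1 and 41.5 CPM. For both, WT TAC 1 was the lowest and WT TAC 2 the highest TAC library, and all 4 stood clear of sham. The main fibrillar chains changed less, Col1a1 by 1.19 ± 0.11, Col1a2 by 1.09 ± 0.12 and Col3a1 by 0.76 ± 0.11 on the log2 scale, as did Col4a1 (0.75 ± 0.13) of basement membranes. Col6a6 fell from 16.2 ± 1.32 to 2.67 ± 0.724 CPM. Of the enzymes that cross-link collagen and elastin, Lox rose from 5.73 ± 1.15 to 34.8 ± 6.25 CPM and Loxl3 by 1.88 ± 0.18. The microfibril genes Mfap5 (2.19 ± 0.17) and Mfap4 (1.70 ± 0.21) rose, and Efemp1 (-1.52 ± 0.16) and P3h4 (-1.13 ± 0.10), a partner of collagen-modifying enzymes, fell.

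Among 26 matricellular proteins, which signal from the matrix rather than build it, 13 rose and 6 fell (median 0.66). Postn, periostin, a mark of activated fibroblasts, was at 71.3, 60.4, 67.1 and 62.1 CPM in sham and 375, 797, 574 and 554 CPM in TAC (3.14 ± 0.22, adjusted p = 1.28e-08). Ctgf and Wisp2, of the CCN family, rose by 2.14 ± 0.41 and 2.35 ± 0.17, whereas Nov, another member, changed by -2.03 ± 0.36. The relatives Cilp and Cilp2 parted: Cilp2 went from 20.9, 26.3, 19.1 and 21.97 CPM in sham to 0.465, 3.59, 1.84 and 1.45 CPM in TAC. Fn1, fibronectin, rose by 1.31 ± 0.17 and Sparc, a collagen chaperone outside the cell, by 1.01 ± 0.08. Of 22 proteoglycans 9 rose and 5 fell, with rises of Bgn (1.51 ± 0.14), Vcan (1.75 ± 0.20) and Aspn (1.23 ± 0.18) and a fall of Ogn (-0.54 ± 0.10), while decorin, Dcn, was not called (0.07 ± 0.12). Of 37 proteases and inhibitors 17 rose and 4 fell. Timp1, an inhibitor of metalloproteases, was at 3.19, 3.79, 3.58 and 3.46 CPM and 18.3, 19.6, 18.3 and 15.7 CPM, and Mmp2 rose by 0.63 ± 0.12 while Mmp15 fell (-0.59 ± 0.06). Markers of activated fibroblasts moved with these genes, 10 of 12 higher, and summed to 291 to 418 CPM in sham and 871 to 1867 CPM in TAC, lowest in WT TAC 1 and highest in WT TAC 2. Postn, Cilp, Thbs4 and Mfap4 are themselves among these markers, and the part of such cells in the rise of the other matrix genes was not tested. Of 14 fibroblast markers 4 rose and 5 fell, with log2 fold changes from -2.10 to 2.19. Pdgfra (0.08 ± 0.13) and Tcf21 (0.05 ± 0.11), markers of fibroblasts at rest, were among the 5 not called. The sum of the 14 was 2426 to 2932 CPM in sham and 1852 to 2587 CPM in TAC, an overlap.

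Cell attachment genes shifted in part. Of 33 integrin and focal adhesion genes 12 rose and 4 fell (7 without WT TAC 2), with Itgb5 at 145, 141, 143 and 154 CPM in sham and 224, 232, 233 and 227 CPM in TAC, and rises of Itga9 (1.12 ± 0.09) and of Flnc (1.10 ± 0.10), filamin C of the Z-disc. Itga8 went the other way (-2.07 ± 0.33), from 41.6, 15.3, 28.1 and 22.1 CPM in sham to 5.42, 5.98, 7.62 and 6.26 CPM in TAC. Itga8 is made in smooth muscle, and Myh11 (-1.24 ± 0.17) and Acta2 (-1.06 ± 0.17), the myosin and actin of that tissue, also fell. Smooth muscle and pericyte markers summed to 1285 to 1626 CPM in sham and 920.4 to 1234 CPM in TAC, 7 of 12 lower, and WT sham 1 was the highest of the 8 in Itga8, Myh11 and Acta2. The part of smooth muscle in these falls was not tested. Of 24 laminin and dystrophin complex genes 8 rose and 7 fell, 4 without WT TAC 3 and JP2CR TAC 3: dystrophin itself, Dmd, rose (0.88 ± 0.10), as did its partner delta-sarcoglycan, Sgcd, from 7.82 ± 0.169 to 26.6 ± 3.80 CPM.

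Within the muscle cell, Z-disc and intermediate filament genes rose together, 29 of 39 tested genes higher and 2 lower, 1 without any of WT sham 2, WT sham 4, WT TAC 2, WT TAC 3 and WT TAC 4 (median log2 fold change 0.49). Besides Xirp2, Synpo2l, Ankrd1 and Des, the list held rises of Nrap, a scaffold of growing myofibrils, from 929, 950.0, 909 and 963 CPM to 1719, 1733, 1769.5 and 1829.6 CPM, and of Myot, myotilin, from 48.6 ± 3.18 to 149 ± 18.8 CPM. Fhl1, a stretch-responsive LIM protein, rose by 1.63 ± 0.16, Csrp3, muscle LIM protein, by 0.51 ± 0.05, Pdlim5 by 0.75 ± 0.06, Actn2, the crosslinker of the Z-disc, by 0.42 ± 0.06, and Ankrd23, a relative of Ankrd1, by 1.72 ± 0.17. A CArG box lay in the 300 bases of 4 of the 32 list members with a promoter sequence, against 1.61% of all tested genes with a promoter. The AP-1 motif TGACTCA was also in 4 of the 32, against 4.64% of those genes. These counts come from a search of several motifs over several lists, and a match is not evidence of binding. With the mean levels of atrial and of adipocyte markers added to the fit as covariates, 21 genes of the list were called higher and 0 lower.

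Of 23 tubulins and microtubule proteins 13 rose and 3 fell. Kif5b, the kinesin heavy chain that carries cargo along microtubules in muscle, was at 127, 114, 124 and 116 CPM in sham and 357, 327, 332 and 380.3 CPM in TAC (1.54 ± 0.10, adjusted p = 5.62e-09). The microtubule stabiliser Map4 rose (0.46 ± 0.04), and Tuba1c and Tubb3 rose by 0.99 ± 0.10 and 1.61 ± 0.22 while Tuba4a, the alpha-tubulin with the highest CPM per kb in sham, fell (-0.81 ± 0.07). Of 20 myosin chains 5 rose and 8 fell, with Myl12a (0.72 ± 0.06) and Myh10 (0.58 ± 0.06) of non-muscle myosin among the rises and the muscle myosin light chain kinase Mylk4 (-1.30 ± 0.23) among the falls. Of 25 actin and tropomyosin genes 12 rose and 4 fell. At the intercalated disc 6 of 20 genes rose and 7 fell, and connexin 43, Gja1, was not called (-0.11 ± 0.14). Ctnna1, alpha-catenin, fell (-0.41 ± 0.06), as did Gja5 (-1.63 ± 0.20), the connexin of atria and conduction tissue, which is one of the atrial markers.

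Within several families the balance of isoforms shifted. CPM was divided by the merged length of all annotated exons of a gene, and each gene's share of its family was computed per library. That length can exceed the length of the transcript made, so the size and rank of a share depend on it. Myh7 made up 0.599, 0.495, 0.546 and 0.532 percent of cardiac myosin heavy chain in the sham libraries and 20.4, 16.7, 18.5 and 20.1 percent in TAC. Acta1 made up 3.44 ± 0.496% of Acta1 and Actc1 together in sham and 34.6 ± 4.18% in TAC (mean ± SD, n = 4). Myh7 and Acta1 thus stayed the minor forms in each library. Xirp2 went from 44.9 ± 2.01% to 74.9 ± 1.48% of the Xin pair, while Xirp1 rose by 0.65 ± 0.10 on the log2 scale. Thbs4 went from 14.8 ± 0.775% to 65.6 ± 5.53% of the thrombospondins, as Thbs2 fell (-0.65 ± 0.13) and Thbs1 rose (1.59 ± 0.25). Rpl3, the general form of ribosomal protein L3, went from 27.6, 25.9, 27.3 and 26.3 percent to 55.7, 40.7, 49.5 and 46.6 percent of the pair it makes with the muscle form Rpl3l. Tuba4a went from 54.7 ± 0.825% to 37.4 ± 1.36% of 5 alpha-tubulins. Xirp2 and Thbs4 passed from a minor to the major share of their family. In each case the 4 TAC libraries lay on one side of the 4 sham libraries.

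**Figure D4:**
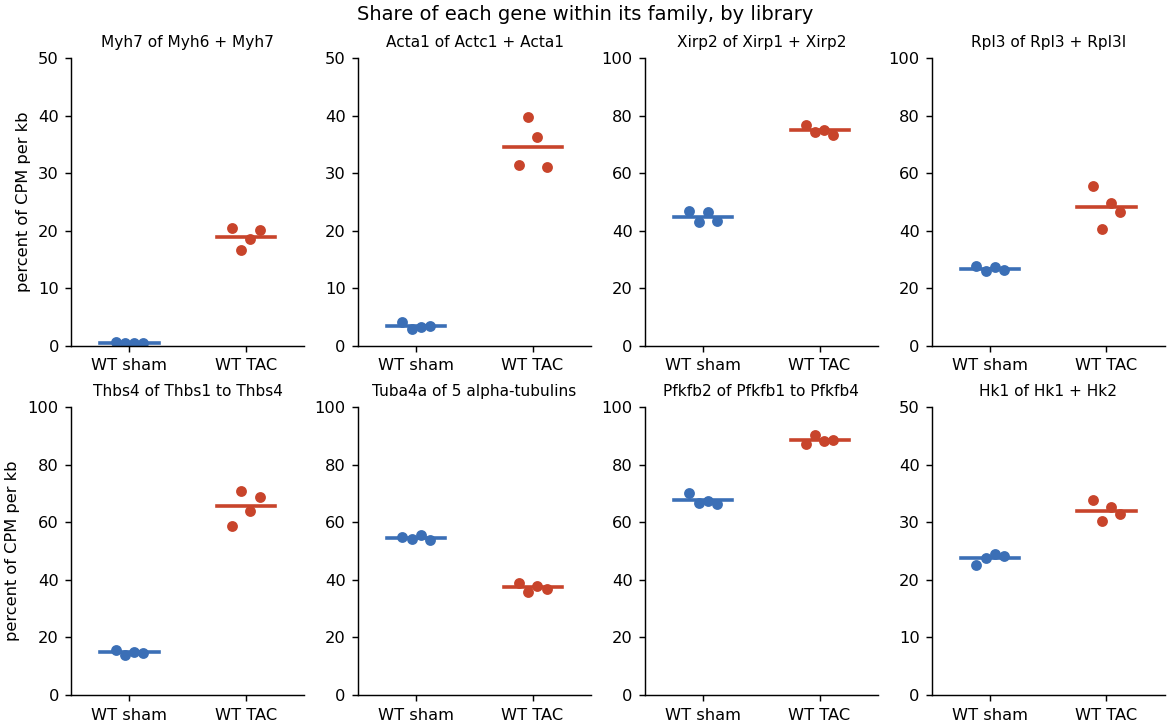
Share of a gene in the summed CPM per kb of its family (percent) in 4 WT sham libraries (blue) and 4 WT TAC libraries (red), with a bar at each mean. The groups do not overlap in any panel, and Myh7 stays under 25 percent in every TAC library.

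Shares also moved among metabolic isoforms. Pfkp, the platelet form of phosphofructokinase, rose (1.20 ± 0.07) while the muscle form Pfkm fell (-0.50 ± 0.05), and its share went from 1.07 ± 0.0305% to 3.35 ± 0.520%. Slc2a1, the basal glucose transporter, went from 3.83 ± 0.171% to 6.64 ± 0.238% of the pair with the insulin-responsive Slc2a4, and Hk1 from 23.8 ± 0.880% to 32.02 ± 1.59% of the pair with Hk2. Pfkm, Slc2a4 and Hk2 still made up most of each family. Of the enzymes that set fructose 2,6-bisphosphate, Pfkfb1 went from 17.7 ± 0.660% to 2.49 ± 0.738% and Pfkfb2, the cardiac form, went from 67.6 ± 1.78% to 88.6 ± 1.20%. In all 43 shares in 15 families were compared, and 41 reached p = 0.0286 in an exact 2-sided permutation test, the smallest that 4 libraries against 4 allow. Shares of a family add up to the whole and are not independent, and the families were chosen with earlier results of these data known. Myh6 and Myh7 are near-identical in sequence over long stretches, as are Acta1 and Actc1, and reads could be divided between them in ways not given in the sources used here.

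Potassium channel genes mostly fell, 19 of 30 lower and 3 higher (median log2 fold change -0.36). Kcnj3, a subunit of the acetylcholine-gated channel, was at 187, 177, 184 and 169 CPM in sham and 50.7, 32.8, 40.9 and 47.2 CPM in TAC. Its partner Kcnj5 went from 179, 205, 190.0 and 195 CPM to 100.2, 74.4, 83.6 and 83.7 CPM. Both fell without overlap, and both are abundant in atrial muscle: Kcnj3 is one of the 14 atrial markers, whose sum was 1687 to 2699.9 CPM in sham and 153 to 420.5 CPM in TAC. With the marker covariates Kcnj3 and Kcnj5 remained called lower (-1.60 and -0.77), and 12 of the 30 channel genes were called lower. Kcnip2, a subunit of the transient outward current found mainly in ventricle, fell by less (-0.62 ± 0.07). Kcnh2 (-0.87 ± 0.14), which carries the rapid delayed rectifier, Abcc9 (-0.55 ± 0.09), a subunit of the ATP-sensitive channel and one of the pericyte markers, and Kcna1 (-2.77 ± 0.24) fell too. Kcnc1 rose (1.62 ± 0.42) from a low level. Of 30 genes for sodium channels, the pump and other ion transport 8 rose and 12 fell, with Fxyd5, a regulator of the sodium pump, higher (1.11 ± 0.09).

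Of 35 genes of excitation-contraction coupling 7 rose, a share close to that of all genes, and 13 fell. Hrc, a calcium-binding protein inside the sarcoplasmic reticulum, was at 1507, 1535, 1489.7 and 1568 CPM in sham and 735, 772, 772 and 834 CPM in TAC (-0.97 ± 0.07, adjusted p = 1.19e-08). Cacna1h, a T-type calcium channel of atria and embryonic muscle, went from 54.8, 105, 72.2 and 91.7 CPM to 16.9, 15.7, 14.8 and 15.7 CPM. The groups were apart in both genes. Slc8a1, the sodium-calcium exchanger, rose (0.40 ± 0.12), and Casq2, calsequestrin, rose (0.27 ± 0.09), the second not without WT TAC 1 or without WT TAC 3 and JP2CR TAC 3. S100a1, which aids the calcium pump, rose (0.42 ± 0.04), as did Ehd4, a membrane-shaping protein (0.80 ± 0.09). Ryr2 (-0.01 ± 0.07), the release channel, and Cacna1c (-0.02 ± 0.07), the L-type channel, were not called.

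Receptor and second messenger genes moved in both directions. Of 35 adrenergic and other G protein receptor genes 8 rose, a share close to that of all genes, and 12 fell. Adra1b, an alpha-1 receptor, was at 49.3, 65.9, 51.9 and 58.8 CPM in sham and 18.1, 18.6, 17.7 and 16.5 CPM in TAC (-1.67 ± 0.20), and Adrb1, the main cardiac beta receptor, fell as well (-0.70 ± 0.12). The receptor kinase Grk5 (1.09 ± 0.12), the thrombin receptor F2r (0.79 ± 0.08), the cyclase Adcy7 (1.41 ± 0.16) and the angiotensin converting enzyme Ace (1.08 ± 0.14) rose. Rgs2, which shuts off Gq signalling, was at 55.6, 70.3, 63.5 and 59.04 CPM in sham and 21.6, 15.8, 15.4 and 22.6 CPM in TAC, a log2 fold change of -1.72 ± 0.16. Of 39 genes of calcineurin, CaMKII and MAP kinase signalling 9 rose, a share close to that of all genes, and 12 fell. With the marker covariates described below 5 rose and 4 fell. Rcan1, an inhibitor and target of calcineurin, was at 91.4, 87.9, 83.7 and 82.04 CPM and 258, 623, 438 and 460.2 CPM, lowest in WT TAC 1 and highest in WT TAC 2. Mapk14, the kinase p38 alpha, fell (-0.68 ± 0.06) and the atypical Mapk4 rose from 6.15 ± 0.441 to 18.7 ± 1.82 CPM. Camk2a fell (-0.86 ± 0.08), while Camk2d, the main cardiac CaMKII, was not called (-0.02 ± 0.08).

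Of 47 cardiac transcription factors 16 rose and 11 fell (7 without WT TAC 2 or without WT TAC 3), the falls a share close to that of all genes. Meox1, a homeobox factor of activated fibroblasts, was at 13.8, 14.7, 13.5 and 13.6 CPM in sham and 44.1, 105, 72.98 and 74.8 CPM in TAC. Myc (1.43 ± 0.14) and Runx1 (1.54 ± 0.17) rose from low levels, and Tead1, which binds the MCAT motif shown above, rose from 281 ± 5.29 to 479 ± 27.7 CPM while Tead3 fell (-0.34 ± 0.09). Srf, which binds CArG boxes, rose by 0.33 ± 0.05 and its partner Myocd by 0.47 ± 0.11. Hopx, a homeodomain protein that restrains Srf, was at 361, 382, 358 and 366 CPM in sham and 154, 119, 138 and 137 CPM in TAC (-1.42 ± 0.11). Tbx20 rose (0.72 ± 0.09), Tbx5 fell (-1.35 ± 0.16) along with the other atrial markers, and Gata4 was not called (0.16 ± 0.07). Among metabolic regulators 7 of 34 rose, a share close to that of all genes, and 11 fell. Hif1a rose (0.80 ± 0.13), Rxra (-0.43 ± 0.05), Ppara (-0.29 ± 0.08) and Esrra (-0.25 ± 0.08) fell, the last not without WT TAC 2, WT sham 2 or WT sham 4, and Ppargc1a was not called (0.02 ± 0.09). Nampt, the first enzyme of NAD salvage from nicotinamide, fell (-0.52 ± 0.11) as Nmrk2, which uses another precursor, rose. Of 20 muscle splicing regulators 3 rose and 6 fell, with Rbfox1 at 68.1, 57.8, 60.8 and 57.7 CPM and 22.4, 19.9, 21.9 and 26.3 CPM and Celf2 higher (0.61 ± 0.06). Mhrt, a noncoding RNA antisense to Myh7, went from 96.7 ± 1.91 to 38.8 ± 2.41 CPM. The strand setting of the counting is not given in the sources used here, so reads of Mhrt and Myh7 cannot be told apart with certainty.

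Complex I, the entry point of the respiratory chain, had the largest share of falls of the 44 lists. Of 42 tested complex I genes 37 fell and none rose (median log2 fold change -0.30), and their CPM summed to 13973 to 14157 in the sham libraries and 10943 to 11866 in TAC. Ndufs1, a core subunit, was at 1142, 1047, 1129 and 1051 CPM and 783, 791, 777 and 855 CPM, and Ndufa3, an accessory one, at 268, 261, 260.5 and 254 CPM and 189, 192, 189.9 and 206 CPM. The largest fall in the list was -0.446 on the log2 scale. The groups did not overlap for 35 of the 42 genes of the list, and for 42% of all genes tested. With the marker covariates 31 were called lower. Of 33 mitochondrial carriers 16 fell and 3 rose (1 without WT TAC 3 and JP2CR TAC 3), with Slc25a20, which brings acylcarnitine in, from 272 ± 10.3 to 167 ± 12.5 CPM and Slc25a42, a coenzyme A carrier, from 148 ± 14.3 to 69.4 ± 0.367 CPM. Of 77 mitochondrial ribosomal proteins 37 fell and 5 rose, 3 without WT sham 3 (median -0.16), but under the marker covariates 13 were called lower and 0 higher. Of 31 genes of mitochondrial dynamics and quality control 17 fell and 3 rose. With the covariates 10 of these and 9 of the carriers were called lower. Pink1, a kinase that marks damaged mitochondria, fell (-0.66 ± 0.06), and Bnip3, a mitophagy receptor driven by hypoxia, rose (0.86 ± 0.15).

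Lipid handling fell with them, 26 of 44 genes lower and 2 higher, 1 without any of WT sham 2, WT sham 4, WT TAC 3 and WT TAC 4 (median -0.29). Cpt2, the inner membrane carnitine transferase, was at 355, 376, 347 and 369.7 CPM in sham and 207, 204, 213 and 204 CPM in TAC. Acsl1, which activates long-chain fatty acids, was at 1369.5, 1355, 1371 and 1366 CPM and 894, 930.3, 899.6 and 958 CPM. Both were nearly constant within a group. The uptake genes Slc27a1 (-1.05 ± 0.12) and Cd36 (-0.32 ± 0.09, not without WT TAC 3 and JP2CR TAC 3) and the uncoupling protein Ucp3 (-1.57 ± 0.38) fell, whereas Cpt1b, the muscle form of the outer membrane transferase, was not called (-0.15 ± 0.23). With the marker covariates 14 of the 44 were called lower, and adipocyte markers, described below, fell with this list. Glucose genes moved both ways, 11 of 38 higher (7 without WT sham 2) and 12 lower, with Hk1 (0.47 ± 0.07) and Slc2a1 (0.34 ± 0.09) higher and Slc2a4 (-0.50 ± 0.06) and Ldhb (-0.54 ± 0.05) lower. Of 27 genes of pyruvate and ketone use 17 fell and 3 rose (5 without WT sham 1). Bdh1, which turns the ketone body hydroxybutyrate into acetoacetate, was at 127, 125, 124 and 127 CPM in sham and 439, 405, 414 and 399 CPM in TAC (1.72 ± 0.22, adjusted p = 8.68e-06), while Oxct1, the next step of ketone use, was not called (0.12 ± 0.05). Pdp2 (-1.04 ± 0.10), which activates pyruvate dehydrogenase, and the pyruvate carrier Mpc2 (-0.53 ± 0.05) fell. In the creatine and adenylate list 12 of 28 fell and 3 rose, with the creatine transporter Slc6a8 higher (0.75 ± 0.06) and muscle creatine kinase Ckm lower (-0.29 ± 0.05).

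Amino acid and stress genes moved both ways. Of 41 genes of serine, one-carbon and stress metabolism 13 rose and 8 fell, the falls a share close to that of all genes. Slc38a2, which imports glutamine and alanine, was at 212, 205, 215 and 211 CPM in sham and 334, 464, 409 and 455 CPM in TAC, and Aldh1l2, a mitochondrial folate enzyme, at 27.6, 25.2, 25.7 and 26.95 CPM and 4.96, 6.04, 4.86 and 5.30 CPM. The first rose (0.98 ± 0.09) and the second fell (-2.31 ± 0.19). Atf4 (0.58 ± 0.10), the factor of the integrated stress response, and Nupr1 (1.46 ± 0.19) rose, and the aminotransferase Gpt2 fell (-1.16 ± 0.09). Cbs, of cysteine synthesis, was near 1 CPM in sham (0.755, 0.994, 0.896 and 0.762 CPM) and had 1 count in each TAC library. Of 77 cytosolic ribosomal proteins 15 rose, a share close to that of all genes, and 3 fell (median 0.03). Without WT TAC 1, 9 rose, and without WT TAC 3 and JP2CR TAC 3, 7 rose. Of 37 protein turnover genes 17 rose and 1 fell, 2 without WT TAC 1 (median 0.12), with Fbxo40 (0.67 ± 0.07), the cathepsin Ctsd (0.45 ± 0.06) and the autophagy adaptor Sqstm1 (0.49 ± 0.08) among the rises, while Trim63, the atrophy ligase MuRF1, was not called (-0.16 ± 0.08). Cdkn1a, which halts the cell cycle, rose (1.06 ± 0.16) in a list of p53 targets in which 10 of 27 rose and 2 fell (4 without WT TAC 1). Antioxidant genes split evenly, 13 of 38 higher and 13 lower: the glutathione transferases Gstk1 (-1.08 ± 0.08) and Gstm1 (-0.77 ± 0.09) fell and the peroxidase Gpx1 (0.63 ± 0.09) and metallothionein Mt2 (1.73 ± 0.40) rose. Serpina3n, an acute phase protease inhibitor, was at 10.4, 10.4, 10.7 and 11.5 CPM in sham and 72.5, 52.6, 60.5 and 57.7 CPM in TAC.

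Macrophage genes were higher by small amounts. Macrophage markers summed to 208 to 225 CPM in sham and 259 to 278 CPM in TAC, 9 of 14 higher and 1 lower (2 without WT sham 1 or without WT TAC 4), and 3 higher with the marker covariates. Ccr2, a receptor of recruited monocytes, was at 2.94, 4.22, 3.58 and 2.70 CPM in sham and 7.52, 7.90, 7.88 and 7.87 CPM in TAC, and Trem2 rose as well (1.28 ± 0.26). Cd163, a marker of resident macrophages, fell (-0.64 ± 0.12). The complement genes C1qa (0.55 ± 0.09), C1qb (0.59 ± 0.11) and C1qc (0.44 ± 0.07) rose, and genes of antigen presentation such as H2-K1 (-0.36 ± 0.06) and B2m (-0.35 ± 0.07) fell. Of 30 genes of antigen presentation and complement 4 rose and 9 fell (3 with the covariates), and of 33 chemokine and cytokine genes 11 rose and 6 fell. Il15, which sustains lymphocytes, was at 42.96, 35.2, 39.6 and 37.97 CPM in sham and 19.4, 11.6, 13.99 and 14.8 CPM in TAC, and Cx3cl1, fractalkine, rose (0.97 ± 0.11). Neutrophil markers summed to 2.36 to 3.36 CPM in sham and 4.12 to 10.1 CPM in TAC.

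Other cell types gave a measure of what else the tissue held. Endothelial markers summed to 2003 to 2139 CPM in sham and 1902 to 2153 CPM in TAC, and none of the 14 was called. Pecam1 (-0.04 ± 0.05) and Cdh5 (-0.11 ± 0.07), which define the type, did not pass the test. Lymphatic endothelial markers rose, 5 of 6 tested, with Prox1 from 25.1 ± 1.98 to 48.00 ± 1.41 CPM, and 0 of the 6 were called with the marker covariates. Prox1 is also made in heart muscle, and Ccl21a, a lymphatic chemokine, was listed at 0 in all 8 libraries. Nerve and Schwann cell markers fell, 4 of 5 tested, and summed to 30.8 to 40.1 CPM in sham and 11.4 to 14.1 CPM in TAC. Dbh, which makes noradrenaline in sympathetic neurons, was at 4.11, 6.33, 5.37 and 5.54 CPM in sham and 0.620, 0.996, 1.01 and 1.53 CPM in TAC (-2.37 ± 0.31). The 4 haemoglobin genes of the erythroid list were listed at 0 in all 8 libraries, while Alas2, the erythroid enzyme of haem synthesis, was at 10.2 to 16.9 CPM in sham and 12.2 to 28.6 CPM in TAC. The haemoglobin genes and Ccl21a have near-identical copies, and how such reads were counted is not given in the sources used here, so these zeros do not show that the transcripts were absent. Mesothelial markers summed to 75.3, 82.4, 76.4 and 79.3 CPM in sham and 85.2, 26.4, 58.9 and 33.3 CPM in TAC, so that WT TAC 1 was above every sham library and WT TAC 2 and WT TAC 4 were the lowest.

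**Figure D5:**
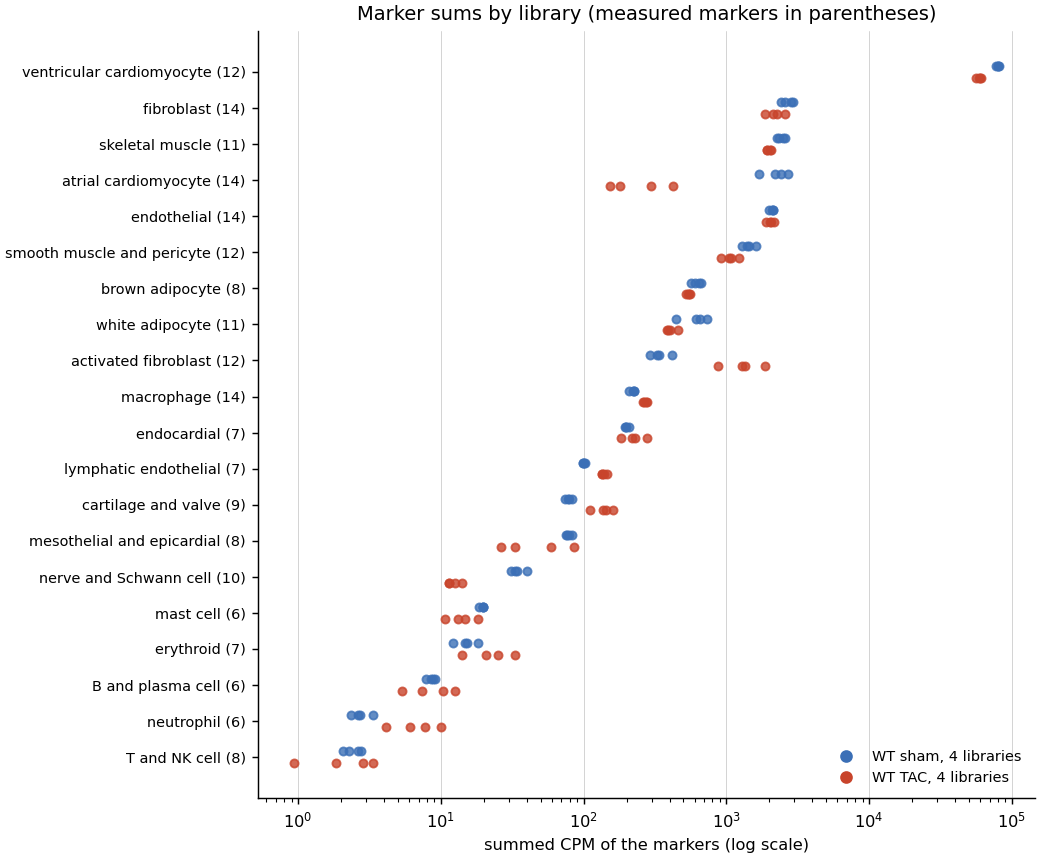
Summed CPM (log scale) of the markers of 20 cell types in 4 WT sham libraries (blue) and 4 WT TAC libraries (red), with the number of measured markers in parentheses. Ventricular muscle leads in every library. The groups lie farthest apart for atrial muscle and are also well apart for activated fibroblasts and for nerve and Schwann cells.

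Genes of atrial muscle and fat were among the lowest folds of the comparison, 6 of the lowest 15 being members of the atrial or white adipocyte marker lists. All 14 atrial markers fell, and their sum was 1687, 2699.9, 2179 and 2432 CPM in sham and 420.5, 153, 294 and 179 CPM in TAC. Myl7, the atrial light chain, was at 451, 762, 604 and 711 CPM in sham and 60.8, 7.77, 36.9 and 10.5 CPM in TAC, and Sln, sarcolipin, which restrains the calcium pump in atria, at 152, 211, 191 and 199 CPM and 22.2, 2.32, 10.6 and 2.25 CPM. In both, WT TAC 1 was the highest of the TAC libraries and WT TAC 2 and 4 were low. Of 11 white adipocyte markers 10 fell. Scd1, a desaturase of fat, was at 35.4, 639, 385 and 447 CPM in sham and 18.4, 28.4, 23.2 and 24.8 CPM in TAC, and Pck1, which makes glycerol for fat storage, at 2.01, 49.6, 23.4 and 32.01 CPM and 0, 0, 0.0838 and 0.642 CPM. WT sham 1 was far below the other sham libraries in both. Ucp1, the uncoupling protein of brown fat, was at 0.839, 42.6, 20.8 and 26.6 CPM in sham and had 0 counts in the TAC libraries, where 3 counts would be 0.199 to 0.251 CPM. Plin1, which coats fat droplets, had 1 count in each TAC library. With limma voom the calls of Pck1, Car3, Bmp10 and Ucp1 were lost. Bmp10, a growth factor of atrial muscle, was at 0, 26.5, 16.1 and 18.1 CPM in sham and 0, 0, 0 and 0.482 CPM in TAC, and its groups overlapped at 0.

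The part of atrial and fat tissue in these falls was not tested beyond a fit with the marker means as covariates. Of the 15 genes with the lowest folds named here, 4 remained called lower in it, 6 lost the call and 5 (Pck1, Myl7, Mybphl, Scd1 and Myl4) changed sign. Myl7, Mybphl, Myl4, Sln, Pck1 and Car3 are themselves in the marker lists whose means are the covariates, so what becomes of them in this fit is partly fixed by its construction. The 4 were Sbk3 and Sbk2, kinases of heart muscle, Uckl1os, a transcript that overlaps Uckl1, and Retnla, a resistin-like secreted protein. Sbk3 was at 124, 161, 137 and 146 CPM in sham and 9.61, 3.72, 4.69 and 2.97 CPM in TAC, -4.76 ± 0.50 on the log2 scale and -2.82 with the covariates. Sbk2 went from 33.6 ± 6.21 to 1.48 ± 0.579 CPM and Retnla from 6.61 ± 1.36 to 0.544 ± 0.288 CPM. The genes that lost the call were Car3, Sfrp5, Ppp1r1b, Ifltd1, Sln and Cilp2. By contrast the 15 highest folds, the 12 smallest p in either direction and the 10 largest changes in CPM in either direction kept their call in that fit. Over the whole table it called 1283 genes higher and 1301 lower, and list counts shrank with it. In 54 of the 88 list counts (44 lists, 2 directions) the change was over 1.5 times. Besides those given above, this held for the following lists with 10 or more calls in a direction. Calls higher went from 22 to 14 for collagen chains, 17 to 11 for proteases and inhibitors, 17 to 10 for protein turnover, 15 to 7 for cytosolic ribosomal proteins, 12 to 6 for integrins and focal adhesion, 12 to 3 for actin and tropomyosin, 11 to 7 for glucose genes, 11 to 4 for chemokines and cytokines and 10 to 5 for p53 targets. Calls lower went from 13 to 7 for excitation-contraction coupling, 12 to 5 for adrenergic and other G protein receptors, 12 to 4 for calcineurin, CaMKII and MAP kinase signalling, 12 to 7 for the creatine and adenylate list, 11 to 7 for cardiac transcription factors and 11 to 4 for metabolic regulators. Outside the lowest 15, genes named in the text that were called and lost the call in it were Edn1, Tgfb1, Bmper, Col4a1, Nov, Slc8a1, Casq2, Tead3, Myocd, Ppara, Esrra, Nampt, Hk2, Cbs, Ccr2, Prox1, H2-K1, Plin1, Bmp10, Ucp1, Vegfa, Sgk1, Gpr157, Plcd3, Tnik and Stk17b. S100a8, Actn3, Lrrn4, Chad, Adrb3 and Clec3a, named only in the closing sections, lost it too. The marker means differ between the surgery groups, so atrial or fat tissue in a sample and the response to TAC cannot be told apart for these genes.

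The 4 TAC libraries differed in order from gene to gene. Among the 519 genes called more than 2-fold higher, WT TAC 1 was the lowest TAC library for 170 and the highest for 190, WT TAC 2 the highest for 179, and WT TAC 3 the highest for 87 and the lowest for 63. Of the genes given above, Postn, Cilp, Thbs4, Col8a1, Col12a1, Meox1, Rcan1 and Gdf15 were lowest in WT TAC 1 and highest in WT TAC 2, whereas Nmrk2, Edn3, Myh7, Mybpc3 and Nppa were highest in WT TAC 1.

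The WT response was compared with that of JP2CR by the interaction term, and few genes passed. Of 13522 genes 16 were called (0.118%), 4 with a higher TAC effect in WT (0.0296%) and 12 with a lower one (0.0887%). Vegfa, the main vascular growth factor, was at 406, 440.2, 425 and 439 CPM in WT sham and 414, 559.5, 514 and 507 CPM in WT TAC, an overlap, and at means of 519.8 and 404 CPM in JP2CR sham and JP2CR TAC (difference of log2 fold changes 0.59 ± 0.10, adjusted p = 0.0256). Rgs2 fell in WT, as given above, and was at 37.8 and 29.00 CPM in JP2CR sham and TAC (difference -1.35 ± 0.22, adjusted p = 0.0256). Sgk1, a kinase induced by stress hormones, was at 96.4 ± 5.18 CPM in WT sham and 74.6 ± 7.81 CPM in WT TAC, and at 57.4 and 101 CPM in JP2CR (difference -1.19 ± 0.17, adjusted p = 0.0128). The matrix gene Efemp1 (-1.31 ± 0.22), the pyruvate carrier Mpc1 (-0.47 ± 0.07), H2-Eb1 (-0.71 ± 0.12), H2-K1 (-0.46 ± 0.08), B2m (-0.58 ± 0.10) and Man2a1 (-0.62 ± 0.11) also had lower differences, and Gpr157 (0.46 ± 0.08), Plcd3 (0.73 ± 0.12) and Tnik (0.56 ± 0.10) higher ones. Gdf10, a BMP-like ligand (-1.46 ± 0.27), Hand2, a cardiac transcription factor (-0.90 ± 0.16), Cd163 (-0.94 ± 0.17) and Stk17b (-0.63 ± 0.12) completed the 16. The counts turned on single libraries. In JP2CR sham 3, JP2CR sham 4 and JP2CR TAC 4, labelled male, Xist was present, and without these 3 the counts were 159 higher and 213 lower. Without JP2CR sham 3 alone they were 27 and 93. Without WT TAC 3 and JP2CR TAC 3 edgeR called 0, with 1049 genes at an unadjusted p under 0.05, and DESeq2 on all 16 called 41 and 92. The genes that led the WT response did not pass this test: the differences were 0.36 ± 0.31 for Myh7 (adjusted p = 0.754), 0.05 ± 0.28 for Ankrd1 (adjusted p = 0.975), 0.44 ± 0.13 for Xirp2 (adjusted p = 0.168) and -0.35 ± 0.09 for Acaa2 (adjusted p = 0.146). Nppb did not pass either, but was among the 8 genes named for the smallest interaction p with a higher TAC effect in WT.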

How the data were processed

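Ventricular polyadenylated RNA of mice was sequenced in 16 stranded libraries, per the labels' protocols. The authors deposited a table of raw read counts per gene symbol and library, and beside it their own log2 fold changes and adjusted p-values (deposited by the authors, used only in a closing count). Per the submitters' processing notes, mm10 was used with Picard 1.128, FastQC 1.0.0, DESeq2 1.6.3, STAR 2.5.0b, Cufflinks 2.2.1 and bedtools 2.17.0. What each tool did, how reads were counted and whether strand was used is not given in the sources used here.

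From the counts, 13522 of 24421 entries passed edgeR's filterByExpr by group. 5817 entries had 0 counts in all libraries and 27 carried date-like symbols. TMM factors and 4 group means over all 16 libraries were fitted with edgeR 4.0.16 (R 4.3.3, glmQLFit and glmQLFTest), so that the groups share 1 estimate of spread. P-values were adjusted over all genes tested, at 0.05. SE is the absolute log2 fold change over the root of F. Isoform shares used CPM per kb of exon from the GENCODE annotation and exact permutation tests.

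Members, lists, families and tests were chosen with earlier results of these data known. Named genes were the 15 highest and 15 lowest folds above a mean log2 CPM of 1, the 12 smallest p in each direction, the 10 largest changes in CPM in each direction, 10 fixed genes, the leading members of each list and the leading interaction genes. Further list members and family partners were named after their values were seen, and some genes that the rule names are not reported here. Alternatives were DESeq2 1.42.0, voom of limma 3.58.1, other scalings and filters, single libraries left out, a replicate block, the 8 WT libraries alone, and marker covariates. No per-sample column was left unused.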

Additional observations from a re-analysis of the deposited data

Results flagged for a closer look

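Within a group of 4 libraries a value is named here when the gap between the highest or lowest library and its nearest neighbour was a larger part of the group's range than the 95% limit of Dixon's test allows. Of the 590 groups of 4 checked, over the genes named in the report and the summed cell type markers, 26 met this limit (4.41%), and chance alone gives about 1 in 20 groups. No explanation of these values was tested.

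WT TAC 4 stood apart from the other libraries of its group for Bmp10 at 0.482 CPM, Bnip3 at 301 CPM, Car3 at 3.77 CPM, Ech1 at 885 CPM, Hadh at 519 CPM, Myl12a at 1211 CPM, Nampt at 204 CPM, Pck1 at 0.642 CPM, Pecam1 at 194 CPM, Pfkfb1 at 5.30 CPM, Pln at 5681 CPM and Ryr2 at 2455 CPM. WT TAC 2 stood apart from the other libraries of its group for Hk2 at 447 CPM, Tgfb1 at 36.8 CPM and Trim63 at 223 CPM. WT TAC 1 stood apart from the other libraries of its group for Ccr2 at 7.52 CPM and Lman1l at 8.06 CPM. WT sham 1 stood apart from the other libraries of its group for Fbp2 at 32.3 CPM, Slc2a1 at 20.6 CPM, Tgfb2 at 17.7 CPM and the summed macrophage markers at 208 CPM. WT sham 2 stood apart from the other libraries of its group for Edn1 at 3.66 CPM and Kcnc1 at 0.683 CPM. WT sham 3 stood apart from the other libraries of its group for Hbegf at 19.7 CPM. WT sham 4 stood apart from the other libraries of its group for H2-Eb1 at 60.6 CPM and Plxnb1 at 131 CPM.

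The TAC effect in WT differed from that in JP2CR, by the interaction term of edgeR's fit at an adjusted p under 0.05, for 16 genes. In log2 units, WT minus JP2CR, the difference was -1.46 for Gdf10, -1.35 for Rgs2, -1.31 for Efemp1, -1.19 for Sgk1, -0.938 for Cd163, -0.900 for Hand2, -0.708 for H2-Eb1, -0.626 for Stk17b, -0.616 for Man2a1, -0.578 for B2m, -0.470 for Mpc1, -0.465 for H2-K1, 0.461 for Gpr157, 0.561 for Tnik, 0.585 for Vegfa and 0.729 for Plcd3.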

How the results depend on the processing

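Called genes in the TAC comparison numbered 2848 higher and 2817 lower, and moved by less than 1.5 times with DESeq2, limma voom, other scalings, other filters, the 8 WT libraries alone, an adjusted p under 0.01, and without 3 libraries with Xist counts or both TAC 3 libraries. They fell to 471 and 441 when a fold above 1.5 was tested, and to 1283 and 1301 with atrial and adipocyte marker means as covariates. Leaving out 1 library at a time gave 2502 to 2713 higher and 2485 to 2713 lower. Of 88 list counts, 83 moved by over 1.5 times when a fold above 1.5 was tested. The number was 54 with the marker covariates, 17 at an adjusted p under 0.01 and 6 with the 8 WT libraries alone. Testing for that fold took the calls lower from 37 to 0 for complex I and for mitochondrial ribosomal proteins. Genes whose log2 fold change turned positive with the marker covariates were Pck1 (0.74), Myl7 (0.45), Mybphl (0.21), Scd1 (0.12), Myl4 (1.03), Bmp10 (11.40), Chad (0.36), Adrb3 (0.33), Ucp1 (4.05), Dkk3 (1.31) and Clec3a (0.62). Pck1, Adrb3, Myl7, Mybphl, Myl4, Bmp10, Dkk3 and Clec3a are in the marker lists that make the covariates, and the cause for the others was not tested.

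Interaction calls, 4 higher and 12 lower, became 41 and 92 with DESeq2, 10 and 29 with no filter, 159 and 213 without the 3 libraries with Xist counts, and 0 and 0 with an adjusted p under 0.01, with a fold of 1.5, without both TAC 3 libraries and with the covariates (1395, 251, 1049 and 1287 genes at an unadjusted p under 0.05 in edgeR). Leaving out 1 library gave 0 to 27 higher and 2 to 93 lower, the most without JP2CR sham 3. The cause was not tested.

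Replicate numbers are shared between groups, but same-numbered WT sham and WT TAC libraries did not deviate together (correlations 0.00895, -0.0461, -0.0184 and -0.0189). These correlations cannot show whether same-numbered libraries share a litter or batch, which is not given in the sources used here. With the replicate block 2766 genes were called higher and 2751 lower over 16 libraries, 2913 and 2687 over the 8 WT libraries, an alternative added after seeing the data, and the interaction gave 2 and 7. Bmp10, Ucp1, Adrb3 and Pck1 had under 3 counts in most WT TAC libraries, so their fitted values above depend on the prior count and measure no size.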

Other observations

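The files also hold the authors' deposited table of the WT comparison. Of the 371 called genes chosen by the naming rule or named after their values were seen, 365 were also called in the same direction in the authors' deposited table. The exceptions were Bmp10, Cbs, S100a8, Actn3, Lrrn4 and Gpr157.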
